A study of Mus musculus with 6 samples.

Results

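The genes described here encode the nuclear-encoded subunits of oxidative phosphorylation (OXPHOS). They were chosen by gene symbol from the deposited table. Complex I symbols began with Ndufa, Ndufb, Ndufc, Ndufs or Ndufv followed by a digit, and complex II was Sdha to Sdhd. Those of complex III began with Uqcr or were Cyc1, those of complex IV began with Cox4 to Cox8, and those of complex V with Atp5. The rule found 83 of the 16579 genes in the table, of which 38 belong to complex I, 4 to complex II, 9 to complex III, 15 to complex IV and 17 to complex V. RNA was measured in cells sorted as megakaryocytes (MKs) from bone marrow of mice aged 3 months. There were 3 Becn1f/f libraries and 3 libraries labelled Becn1f/f;Pf4-iCre. Both genotypes carry the floxed allele of Becn1, a gene required for autophagy, and differ by a Cre recombinase driven by Pf4 (platelet factor 4) regulatory sequence. No treatment is named for either. The sources do not say whether a library is 1 mouse or a pool, so p-values measure only the spread between these samples. The libraries held 16467560 to 17156728 estimated counts each.

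The OXPHOS complexes sit in the inner mitochondrial membrane. Complexes I and II pass electrons from NADH and succinate to ubiquinone, complex III passes them on to cytochrome c, complex IV reduces oxygen, and complex V, the ATP synthase, uses the resulting proton gradient to make ATP. Most subunits are encoded in the nucleus, their genes are commonly transcribed under NRF1 and ETS-family factors, and MKs pass mitochondria on to the platelets they release. The symbol rule has limits that bear on the counts. Ndufa4 was grouped with complex I by its symbol although the protein is known as a subunit of complex IV, Cox7a2l is known chiefly as a supercomplex assembly factor, Ndufb4c is a copy of Ndufb4, and 4 related genes of the table with other symbols (Ndufab1, Cycs, Atpif1 and Dmac2l) fall outside it. The subunits encoded by mitochondrial DNA were not analysed here.

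Promoters are shown first because promoter motifs are a property of these genes that the rule did not use. RefSeq promoter windows on GRCm38.p6 (250 bases before to 50 after a transcription start) were found for 66 of the 83 members. The NRF1 core GCATGCGC, read on both strands (GCGCATGC on the other), was in a window of 10 of them (15.2%), against 3.05% of the 27025 genes with a window and 5.93% of the 9879 that were also tested for expression. The ETS core CCGGAAG, which reads CTTCCGG on the opposite strand, was in 17 members (25.8%), against 9.93% of all genes and 20.3% of the tested ones, so expressed genes in general held it nearly as often. Both cores were found together at 5 members, which are printed 5′ to 3′ on the strand of the gene with each core in capitals. Only the stretch around the nearest pair of cores is printed from each window, and a second ETS core of Atp5l lies outside it. They are Atp5k and Atp5l (small membrane subunits of ATP synthase, on the minus strand at chr5:108434372-108434457 and chr9:44920938-44920992), Cox6a1 (a complex IV subunit, minus strand, chr5:115348958-115349128), Sdhb (the iron-sulfur subunit of complex II, plus strand, chr4:140961207-140961293) and Uqcr11 (a small subunit of complex III, minus strand, chr10:80406808-80406897).
Atp5k: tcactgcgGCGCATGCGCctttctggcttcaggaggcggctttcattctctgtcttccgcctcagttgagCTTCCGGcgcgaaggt
Atp5l: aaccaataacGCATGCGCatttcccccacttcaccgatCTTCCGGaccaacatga
Cox6a1: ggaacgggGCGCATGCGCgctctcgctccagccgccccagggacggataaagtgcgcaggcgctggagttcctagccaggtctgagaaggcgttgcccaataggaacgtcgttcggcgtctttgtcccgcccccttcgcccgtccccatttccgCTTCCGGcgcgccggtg
Sdhb: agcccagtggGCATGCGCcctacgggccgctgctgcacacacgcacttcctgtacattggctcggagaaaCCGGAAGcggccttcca
Uqcr11: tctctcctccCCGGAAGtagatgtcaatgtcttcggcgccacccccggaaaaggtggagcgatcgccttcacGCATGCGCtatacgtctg
In Atp5k and Cox6a1 the NRF1 core occurs as 2 overlapping copies, one on each strand, which is why the run of capitals there is longer. A match of letters describes the window and does not show that a factor bound it.

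The subunits were abundant. Levels between genes are given in FPKM, the deposited fragment counts scaled for length and library size, and the 80 members that passed the expression filter (12256 of all genes did) had a median of 101.6 FPKM over the 6 libraries, against 12.3 for all tested genes. Per complex the median FPKM was 79.3 for complex I, 86.4 for complex II, 128.9 for complex III, 267.4 for complex IV and 254.0 for complex V. FPKM divides by length, and the median annotated length was 680 nt in complex IV but 2066 nt in complex II. The order of the complexes in FPKM need not be their order in counts. In FPKM the highest member was Atp5b, the catalytic beta subunit of ATP synthase, with a mean of 523, and the lowest tested member was Ndufa11, an accessory subunit of the complex I membrane arm, with 7.73. Together the members held 0.508% to 0.762% of the counts and 1.84% to 2.5% of the summed FPKM of a library. FPKM of the shortest genes depends on the length the authors divided by. The length implied by count and FPKM was 42.6 nt for Atp5k, whose annotated transcript has 371 nt, and it lay between 36.6 nt in Becn1f/f library 1 and 50 nt in library 1 labelled Becn1f/f;Pf4-iCre. For Ndufa3, the complex I member with the highest FPKM (228.9 to 398 by library), it was 63.8 nt against 515 nt, so the high FPKM of such genes rests partly on this divisor, and for Ndufa11 it was 2343 nt against 918 nt.

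**Figure D1:**
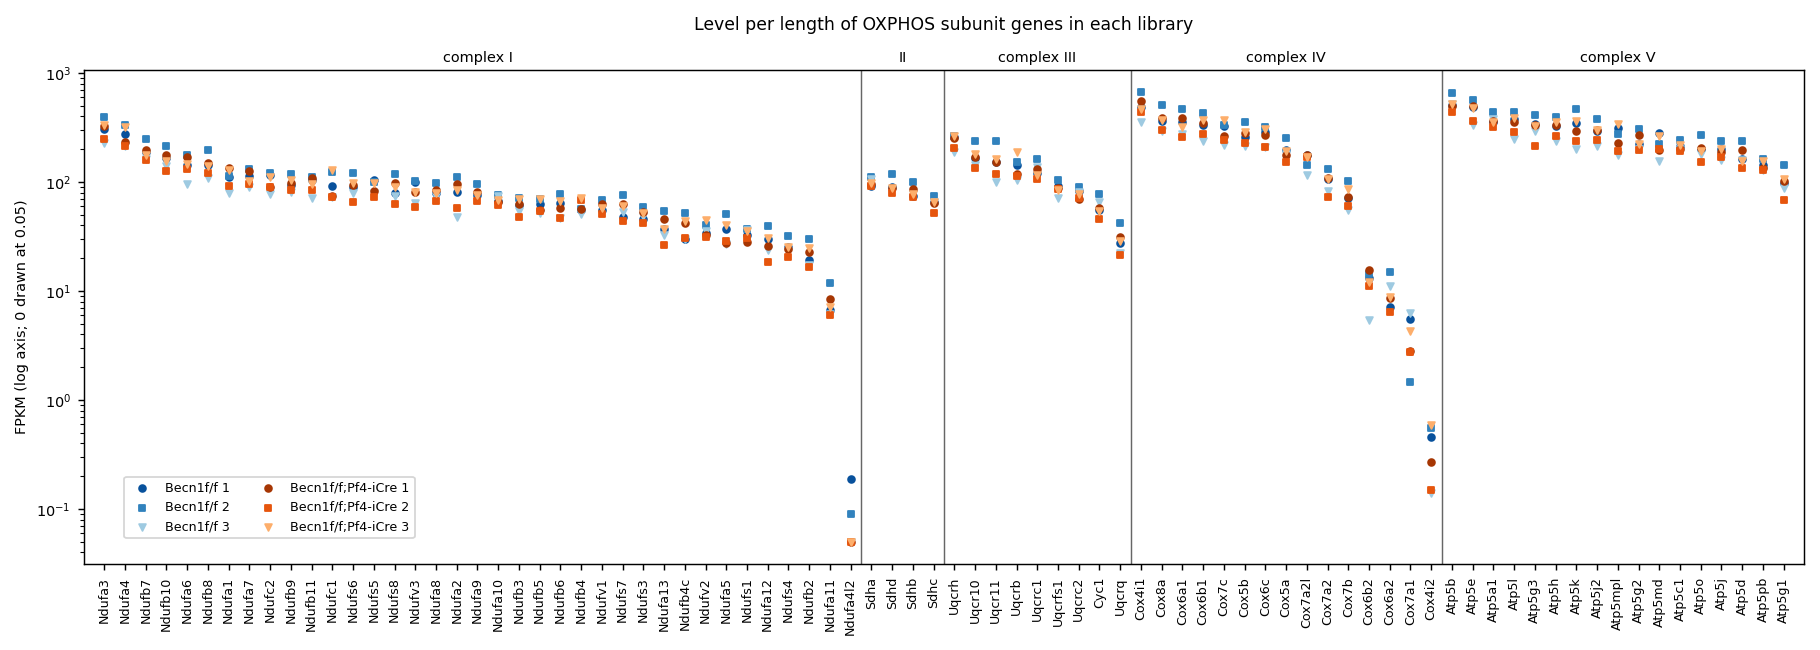
FPKM (log axis) of 82 members in each of the 6 libraries, grouped by complex and ordered by mean within it, with blue points for Becn1f/f and orange points for libraries labelled Becn1f/f;Pf4-iCre. Most members lie close together within a complex, and the low points are Ndufa11 and Ndufa4l2 in complex I and Cox6b2, Cox6a2, Cox7a1 and Cox4i2 in complex IV.

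The isoforms found in most tissues had far higher levels than their tissue-restricted counterparts, of which Cox6a2 and Cox6b2 also passed the filter. Cox4i1, the ubiquitous form of a regulatory subunit of complex IV, had 489, 668 and 353 FPKM in Becn1f/f libraries 1, 2 and 3 and 553, 442 and 465 FPKM in libraries 1, 2 and 3 labelled Becn1f/f;Pf4-iCre. Cox4i2, its counterpart known from lung, had 0.14 to 0.59 FPKM and did not pass the filter. Cox6a1 had 258.1 to 471 FPKM, whereas Cox6a2, the heart and skeletal muscle form, had 6.42 to 15.0. In each of these pairs the lowest library of the common form lay far above the highest library of the other. Cox6b1 had 239.9 to 426 FPKM, and Cox6b2, known from testis, 5.48 to 15.6. Cox7a2 had 73.3 to 132.5 FPKM, and the muscle form Cox7a1, which did not pass the filter, 1.45 to 6.30. Of the remaining small subunits, Cox8a had 295.3 to 509.4 FPKM, Cox7a2l 116.5 to 177.6 and Cox7b 55.4 to 102. Ndufa4 had 211.9 to 330.5 FPKM, and its hypoxia-induced paralog Ndufa4l2 was listed at 0 in 4 libraries and at 0.09 and 0.19 in the other two, again under the filter. Of the 3 genes for the c subunit, which forms the rotating ring of ATP synthase, Atp5g3 had 215.3 to 410.3 FPKM, Atp5g2 194.7 to 306.3 and Atp5g1 69.0 to 142.8. Atp5g1 was below both others in every library, and Atp5g3 was above Atp5g2 in every library although their ranges overlapped.

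The comparison of genotypes asks whether floxed Becn1 with Pf4-driven Cre goes with a different level of these subunits. No member passed the thresholds of the study's methods (P under 0.05 before adjustment and a fold change of 1.5 or more, up or down, DEGs for short), and none had an unadjusted P under 0.05 in edgeR's quasi-likelihood test. Of all tested genes, 1.36% were higher and 0.938% lower DEGs (2.3% in either direction), 3.92% (higher) and 2.39% (lower) had an unadjusted P under 0.05 (6.31% in either direction), and 0.0408% (5 genes) had an adjusted p under 0.05. DESeq2 likewise gave 0 members at either threshold, although it gave 77 genes in all with an adjusted p under 0.05. The fitted difference was below 0 for 71 of the 80 members and above 0 for 9, with a median log2 fold change of -0.10, where all tested genes had a median of -0.02 with 6677 of 12256 below 0. That median rested on single libraries: it was 0.08 without Becn1f/f library 2 and 0.02 without library 2 labelled Becn1f/f;Pf4-iCre. Standard errors (SE) of the members ran from 0.12 to 0.35 (log2, n = 3 each). The 95% interval of the difference stayed within 1.5-fold in both directions for 48 of the 80 members, against 60.9% of all tested genes, so for the other members these libraries leave room for a change of that size. Values of the genotypes were fully separated for 3 of the 80 members (Ndufa10, Ndufb4 and Uqcrc2), against 10.6% of all tested genes (5.42% higher and 5.18% lower). Log2 fold changes fell with GC content across all tested genes (Spearman correlation -0.35, n = 12068) and less so across the members (-0.20, n = 80), and no p is given because genes share their libraries. In these bulk samples, fewer cells of a type and less RNA per cell cannot be told apart.

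**Figure D2:**
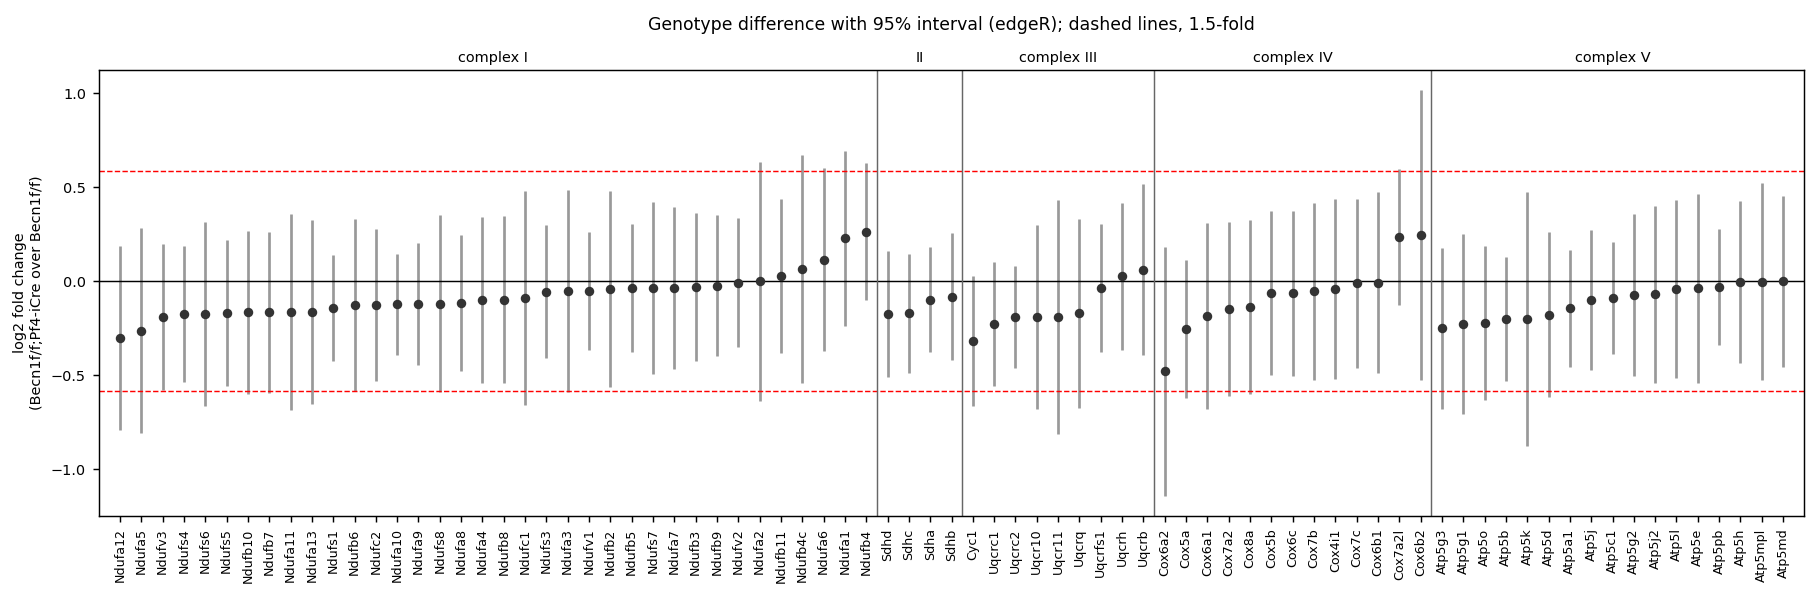
Log2 fold change of 79 tested members (points) with its 95% interval (bars) from edgeR, grouped by complex, where positive values are higher in libraries labelled Becn1f/f;Pf4-iCre and dashed lines mark 1.5-fold. Every interval includes 0, and the points run from -0.48 for Cox6a2 to 0.26 for Ndufb4.

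In complex I, 32 of the 37 tested members were below 0 and 5 above, with a median log2 fold change of -0.10. That median was 0.07 without Becn1f/f library 2 and 0.04 without library 2 labelled Becn1f/f;Pf4-iCre. The 16 members of the matrix arm had a median of -0.11 and the 19 of the membrane arm one of -0.10. Ndufa12, an accessory subunit of the matrix arm, had 21.7, 27.8 and 16.4 CPM (counts scaled to library size after TMM normalization) in Becn1f/f libraries 1, 2 and 3 and 19.3, 12.8 and 21.3 CPM in libraries 1, 2 and 3 labelled Becn1f/f;Pf4-iCre. Its groups overlapped, and its log2 fold change was -0.30 (SE 0.22, adjusted p = 0.91 from edgeR). Ndufb4, an accessory subunit of the membrane arm, had 7.71, 8.57 and 7.34 CPM in the Becn1f/f libraries and 9.23, 9.17 and 9.98 CPM in those labelled Becn1f/f;Pf4-iCre. These groups did not overlap, with a log2 fold change of 0.26 (SE 0.17, adjusted p = 0.89 from edgeR). The count of Ndufb4 is uncertain, because its estimated counts and those of its copy Ndufb4c were fractions that added up to whole numbers in every library. Summed over the pair, the CPM were 12.8, 17.9 and 12.4 against 17.4, 14.1 and 17.3, and the groups overlapped. Ndufa10, another accessory subunit, had 68.0, 73.7 and 68.6 CPM in the Becn1f/f libraries and 66.8, 60.1 and 66.4 CPM in the others, a log2 fold change of -0.12. It was singled out for its lack of overlap after its values were seen.

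Complex II is the smallest complex, and its 4 genes were all below 0, with log2 fold changes of -0.175 to -0.083 and a median of -0.135. Sdha, the flavoprotein that oxidizes succinate, had 238.8, 281.2 and 264.8 CPM in Becn1f/f libraries 1, 2 and 3 and 253.3, 232.6 and 247.1 CPM in libraries 1, 2 and 3 labelled Becn1f/f;Pf4-iCre. Sdhc, a membrane anchor, had 57.9, 64.0 and 55.2 CPM in the former and 58.3, 43.5 and 55.4 CPM in the latter. Only library 2 labelled Becn1f/f;Pf4-iCre lay outside the range of the Becn1f/f libraries for Sdhc, and the log2 fold change was -0.17 (SE 0.15, adjusted p = 0.94 from edgeR). All 4 intervals of complex II stayed within 1.5-fold.

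Complex III had a median log2 fold change of -0.19, with 7 of 9 members below 0, but the median was 0.10 without Becn1f/f library 2 and -0.02 without library 2 labelled Becn1f/f;Pf4-iCre. Cyc1, cytochrome c1, which passes electrons to cytochrome c, had the smallest unadjusted P of all members, 0.067 in the edgeR test. Its CPM were 65.5, 88.7 and 74.1 in Becn1f/f libraries 1, 2 and 3 and 70.3, 51.8 and 60.9 in libraries 1, 2 and 3 labelled Becn1f/f;Pf4-iCre, so that 1 library of the latter lay within the range of the former. The log2 fold change was -0.32 (SE 0.16, adjusted p = 0.83 from edgeR). Uqcrc2, a core protein of complex III, had 131.6, 141.1 and 122.1 CPM against 113.6, 110.2 and 121.7. The groups did not overlap, but by a gap of less than 1 CPM between the nearest libraries, and the log2 fold change was -0.19 (SE 0.125, adjusted p = 0.90 from edgeR). Its estimated counts were not whole in 3 libraries, so part of its reads may be shared with another gene. At the ends of the range of levels, Uqcrh, the hinge protein, had 187.7 to 265.5 FPKM and Uqcrq 21.5 to 42.5 FPKM. Their implied lengths were 230.9 and 1200 nt, so the size of the gap between them rests partly on the divisor. In mean CPM over the 6 libraries Uqcrh, at 55.5, was still above Uqcrq, at 34.9. Uqcrq was in turn above Uqcr11, at 20.1, so its place as the lowest of the complex holds for FPKM only.

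In complex IV, 11 of 13 tested members were below 0, and the median log2 fold change was -0.06. That median was 0.14 without Becn1f/f library 2 and 0.06 without library 2 labelled Becn1f/f;Pf4-iCre. Cox6a2 had the lowest log2 fold change of all tested members. Its CPM were 2.45, 5.23 and 3.73 in Becn1f/f libraries 1, 2 and 3 and 3.18, 2.11 and 2.91 in libraries 1, 2 and 3 labelled Becn1f/f;Pf4-iCre, and its log2 fold change was -0.48 (95% interval -1.14 to 0.18, adjusted p = 0.89 from edgeR). The groups overlapped, and a 2-fold decrease lies inside the interval. Without Becn1f/f library 1 it passed the DEG thresholds, at a log2 fold change of -0.70 (unadjusted P = 0.0252 and adjusted p = 0.43 in edgeR). In that fit 398 of 12386 tested genes were DEGs. The log2 fold change of Cox6a2 was only -0.18 without Becn1f/f library 2 and -0.32 without library 2 labelled Becn1f/f;Pf4-iCre. Cox5a, a subunit on the matrix side, had 73.6, 95.9 and 65.7 CPM against 71.7, 54.8 and 70.7, a log2 fold change of -0.25 (SE 0.17, adjusted p = 0.90 from edgeR). On the other side of 0, Cox7a2l had 138.1, 109.8 and 86.3 CPM in the Becn1f/f libraries and 140.9, 125.5 and 127.2 CPM in those labelled Becn1f/f;Pf4-iCre, a log2 fold change of 0.24 (SE 0.17, adjusted p = 0.90 from edgeR). Without Becn1f/f library 1 its log2 fold change was 0.43 (unadjusted P = 0.0128 and adjusted p = 0.35 in edgeR). The 398 DEGs given above came from the same fit. No other fit that left out a library gave Cox7a2l an unadjusted P under 0.05. Cox6b2 had the widest interval, from -0.53 to 1.02.

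All 17 members of complex V were below 0, with log2 fold changes of -0.25 to -0.001 and a median of -0.09, which was 0.06 without Becn1f/f library 2 and 0.00 without library 2 labelled Becn1f/f;Pf4-iCre. The 5 genes of the F1 head, the catalytic part in the matrix, had a median of -0.145. Atp5b had 816, 1016 and 790.5 CPM in Becn1f/f libraries 1, 2 and 3 and 805, 675 and 799 CPM in libraries 1, 2 and 3 labelled Becn1f/f;Pf4-iCre. Apart from the high library 2 of Becn1f/f and the low library 2 of the other genotype, these values lay between 790.5 and 816 CPM. The log2 fold change was -0.20 (SE 0.15, adjusted p = 0.91 from edgeR). The 3 c-ring genes had a median of -0.23. Atp5g3 had 137.8, 167.9 and 116.7 CPM against 141.7, 84.3 and 128.9, a log2 fold change of -0.25 (SE 0.20, adjusted p = 0.92 from edgeR), and its difference again lay mainly in both libraries numbered 2.

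The spread within each genotype followed 1 pattern across the subunits, in which library 2 of Becn1f/f was high and library 3 of Becn1f/f and library 2 labelled Becn1f/f;Pf4-iCre were low. Becn1f/f library 2 was the highest of the 6 libraries for 66 of the 80 tested members (82.5%), against 17.1% of all tested genes. The lowest was Becn1f/f library 3 for 31 members and library 2 labelled Becn1f/f;Pf4-iCre for 48, together 79 of 80 (98.8%), against 36.9% of all tested genes. The exception was Ndufs1, the largest subunit of complex I, which had 71.5 CPM in library 1 and 73.6 CPM in library 2 labelled Becn1f/f;Pf4-iCre. Within genotypes, Becn1f/f library 2 was above library 3 for all 80 members (47.3% of all tested genes), and library 1 labelled Becn1f/f;Pf4-iCre was above library 2 for 79 (52.2%). These libraries share all their genes, so the counts describe the libraries and are not a test.

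As a median log2 deviation from each member's mean, the subunits lay at 0.02, 0.365 and -0.27 in Becn1f/f libraries 1, 2 and 3 and at 0.155, -0.32 and 0.04 in libraries 1, 2 and 3 labelled Becn1f/f;Pf4-iCre, whereas all tested genes lay between -0.01 and 0.01 in each. The sum over members was 6199, 7619 and 5456 CPM in the Becn1f/f libraries and 6547, 5080 and 6132 CPM in the others. The means were 6425 ± 1099 and 5919 ± 756 (SD, n = 3 each), so the difference between genotypes was smaller than the spread within either. Becn1f/f library 2 was highest in the median deviation of every complex, at 0.36 for complex I, 0.255 for II, 0.33 for III, 0.45 for IV and 0.40 for V, and the lowest was Becn1f/f library 3 in complexes III and IV and library 2 labelled Becn1f/f;Pf4-iCre in the others. The ratio of Becn1f/f library 2 to library 3 in CPM was, among the tested members, smallest for Ndufs1, at 1.04, and largest for Cox6b2, at 2.73. For Atp5k it was 2.66, from 22.4 to 8.41 CPM, for Uqcr11 2.53, from 32.4 to 12.8 CPM, and for Ndufa2, an accessory subunit of complex I, 2.44, from 32.3 to 13.3 CPM. The members named for these ratios were chosen after their values were seen.

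**Figure D3:**
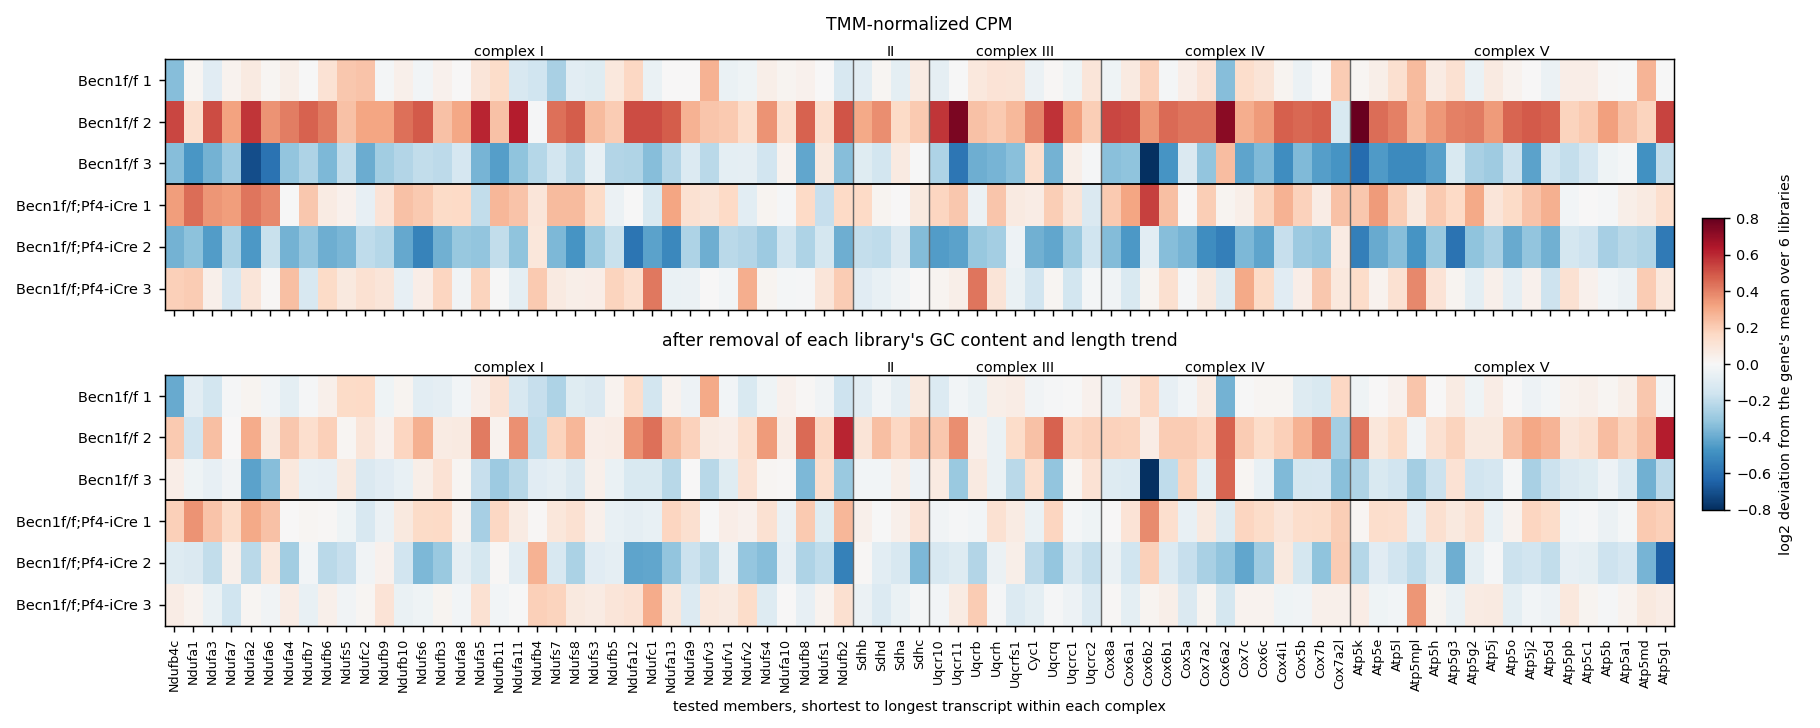
Log2 deviation of 79 tested members from their means over the 6 libraries (colour), with libraries as rows and members as columns from the shortest to the longest transcript in each complex, before (top) and after (bottom) removal of each library's trend with GC content and transcript length. The row of Becn1f/f 2 is mostly red and the rows of Becn1f/f 3 and Becn1f/f;Pf4-iCre 2 mostly blue, and the colours are paler in the lower panel.

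Transcript length moved with this pattern. The tested members had a median transcript length of 870 nt, against 3135 nt for all tested genes, and short genes outside the list also differed between these libraries. The median log2 difference between Becn1f/f libraries 2 and 3 was 0.78 for the 27 members under 700 nt and 0.575 for the 169 other tested genes of that length. From 700 to under 1000 nt it was 0.68 for 19 members and 0.47 for 410 other genes, and from 1000 to under 1500 nt it was 0.59 for 13 members and 0.27 for 1036 other genes. At 1500 nt and over it was 0.28 for 21 members, whereas the 10373 other genes had -0.055. In every length class the members' median thus lay above that of the other genes, although the last class has no upper limit and its other genes need not be of similar length. Each length was that of the gene's longest annotated protein-coding transcript, which can exceed the one expressed. Atp5g1 and Ndufb2 stood in the last class at 4715 and 4371 nt, although count and FPKM implied 481.5 and 524.4 nt. For Sdha the values were closer, at 2900 and 2541 nt. Across the 80 members the Spearman correlation of this difference with length was -0.56, and across the 12068 tested genes with a length it was -0.44, where points share their libraries and genes are not independent. After the trend of each library with GC content and length was removed, the median deviations of the members were -0.01, 0.18 and -0.09 in Becn1f/f libraries 1, 2 and 3 and 0.065, -0.15 and 0.02 in the others, so the range narrowed but kept its order at the ends. Becn1f/f library 2 was then the highest for 57 members and Becn1f/f library 3 or library 2 labelled Becn1f/f;Pf4-iCre the lowest for 68. The correction used the same annotated lengths, so it need not remove the trend of members whose length was set too long. The part of such lengths, RNA quality or library preparation in the remainder was not tested.

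**Figure D4:**
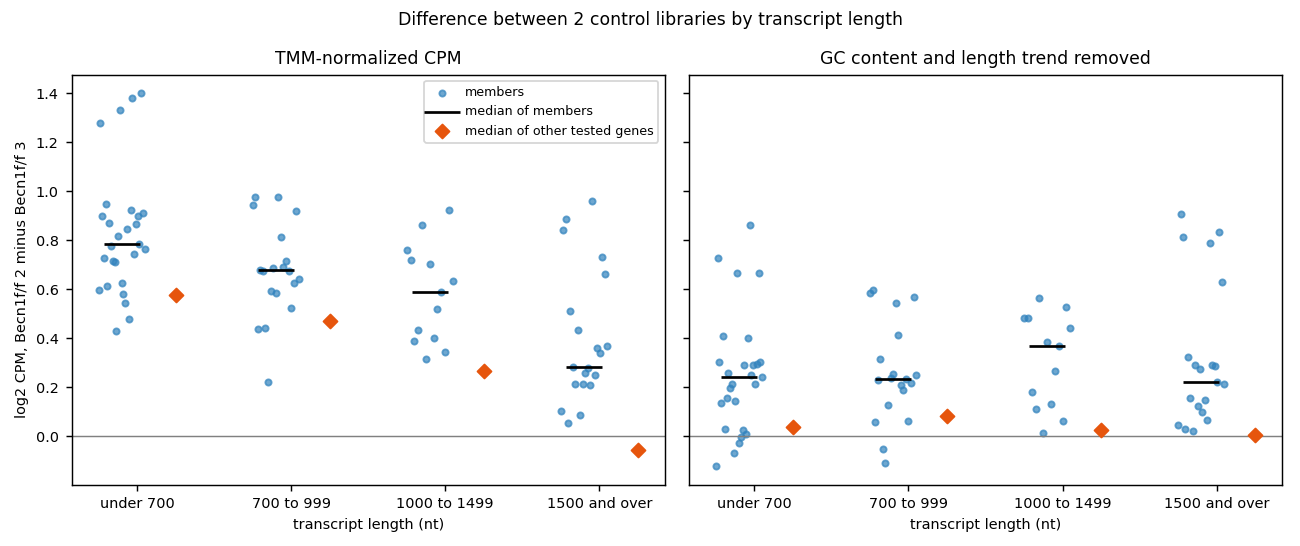
Difference in log2 CPM between Becn1f/f libraries 2 and 3 by transcript length class, with blue points for 79 members, black bars for the medians of all tested members and orange diamonds for the medians of other tested genes, before (left) and after (right) removal of the GC content and length trend. On the left the medians fall with length in both sets, from 0.78 to 0.28 for members and from 0.575 to -0.055 for other genes, and on the right the members' medians lie at 0.22 to 0.37 and those of other genes at 0.00 to 0.08.

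Related metabolic genes were compared in the same way. Of the OXPHOS assembly factors, which build the complexes but are not part of them, 55 of 56 were tested, with a median log2 fold change between genotypes of -0.085, 38 below 0 and 17 above. Of these, 1 was a lower DEG, Lyrm7, a chaperone of the complex III iron-sulfur protein, with 1.25, 1.21 and 1.52 CPM in the Becn1f/f libraries and 0.48, 0.60 and 0.83 CPM in those labelled Becn1f/f;Pf4-iCre (log2 fold change -1.05, SE 0.345, unadjusted P = 0.0103, adjusted p = 0.50 from edgeR). Among the 18 enzymes of the TCA cycle, 17 were below 0, the median was -0.08, and 0 were DEGs. Mdh2, mitochondrial malate dehydrogenase, alone had an unadjusted P under 0.05 (log2 fold change -0.38, unadjusted P = 0.0286 and adjusted p = 0.71 from edgeR). Among 17 tested glycolytic enzymes the median was -0.21, 0 were DEGs, and Aldoa, Hk3 and Pgk1 had an unadjusted P under 0.05, all lower, with log2 fold changes of -0.34, -0.345 and -0.325 (adjusted p = 0.71 to 0.78 from edgeR). The 11 tested regulators of mitochondrial biogenesis had a median of -0.055, with no member at either threshold. Among all tested genes, 0.938% were lower DEGs and 2.39% were lower with an unadjusted P under 0.05 in edgeR.

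Across libraries, Becn1f/f library 2 had the highest median deviation of the assembly factors (0.14), the TCA enzymes (0.17) and the glycolytic enzymes (0.16), each smaller than the 0.365 of the subunits. Library 2 labelled Becn1f/f;Pf4-iCre was the lowest for each of them, at -0.14, -0.10 and -0.225. The biogenesis regulators lay at -0.00 and 0.07 in these libraries.

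**Figure D5:**
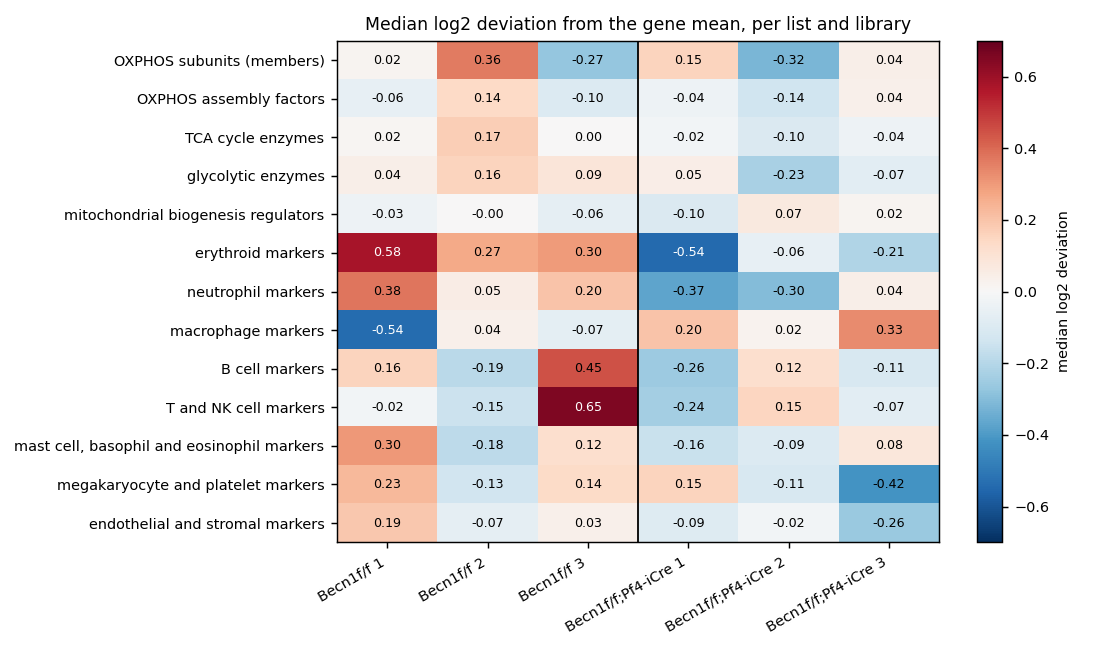
Median log2 deviation from the gene mean (colour and printed value) of the OXPHOS subunits, 4 related metabolic lists and 8 cell type marker lists in each library. The subunits run from -0.32 to 0.36, and no marker list shows their combination of a highest Becn1f/f 2 with a lowest Becn1f/f 3 or Becn1f/f;Pf4-iCre 2.

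Several facts of these libraries bear on the values. Becn1 itself had 127.5, 108.8 and 118.7 CPM in the Becn1f/f libraries and 106.4, 104.4 and 109.8 CPM in the libraries labelled Becn1f/f;Pf4-iCre (log2 fold change -0.15, adjusted p = 0.94 from edgeR), a sum over the gene that does not separate the floxed exons. Of 16 MK and platelet markers, 14 were tested. Their summed level was 2370 to 4860 CPM in Becn1f/f and 2332 to 4317 CPM in the other libraries, most of it Thbs1 (2004 to 4472 CPM). Itga2b, which encodes CD41, had 142.4 to 187.4 CPM, but Pf4, the gene whose promoter drives Cre, had only 3.76, 6.73 and 4.12 CPM in the Becn1f/f libraries and 3.06, 2.11 and 2.08 CPM in the others. It was the only DEG of this list (log2 fold change -1.01, unadjusted P = 0.00446 and adjusted p = 0.42 from edgeR). Elsewhere on the MK list, Itgb3 had 79.8 to 143 CPM and Vwf 12.2 to 25.05. Other platelet genes were near the floor, with Ppbp at 1.25 to 10.25 CPM, Tubb1 at 1.07 to 7.71 and Gp9 at 1.13 to 1.78. Prg2, an eosinophil granule gene, had 1476 to 4652 CPM. Markers of cells other than MKs were thus present in every library. The subunit levels are those of the whole sorted sample and need not be those of MKs. The 14 erythroid markers were all below 0 (median log2 fold change -0.61, 6 lower DEGs), at 655 to 982 CPM in sum in Becn1f/f and 512 to 652 CPM in the others. Of 16 neutrophil markers, 15 were below 0 (median -0.435, 1 lower DEG), at 12360 to 17480 CPM against 9586 to 12920 CPM. Of 12 tested macrophage markers, 10 were above 0 (median 0.33, 3 higher DEGs), at 821 to 870.5 CPM against 875.5 to 1056 CPM. Among all tested genes, 0.938% were lower and 1.36% higher DEGs. The MK, B cell, T and NK cell, mast cell/basophil/eosinophil and endothelial/stromal lists had medians of -0.06, -0.23, -0.21, -0.195 and 0.03. The part of these cells in the small differences of the subunits between genotypes was not tested.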

How the data were processed

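RNA of bone marrow cells sorted as MKs was measured in 6 libraries, grouped by the genotype in the sample titles. The authors removed low-quality reads and mapped the rest with HISAT. The submitters' processing notes also name Bowtie2 and the GRCm39/mm39 build, and the counting tool is not given in the sources used here. The deposited estimated counts, not normalized and not whole for 10.3% to 11.3% of genes per library, were rounded. The deposited FPKM values, scaled by the authors for length and library size, were used for levels and in alternatives. Of the other per-sample columns, 16 were not used, 4 of them from a library that matches no sample, and neither were 8 columns of group means.

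Genes passing edgeR's expression filter were TMM-normalized and tested with edgeR 4.0.16 (R 4.3.3, quasi-likelihood, genotype only, Benjamini-Hochberg adjustment over 12256 genes). Standard errors are the log2 fold change divided by the root of F, without sign. GC content and length came from GENCODE M21, matched for 83 of 83 members. They were those of the longest protein-coding transcript, or of the longest transcript where none was coding. No pair of replicates agreed within counting error (chi-square statistic of 15.3 to 50.2 for each degree of freedom). The steps were tested on simulated data. Named members had, in each complex, the smallest P (2 members, 1 in complex II) or the highest or lowest mean FPKM, or were tissue isoforms. Members and lists were chosen with earlier results of these data known, so no p is given for a list. Counts and medians cover all members, but 1 is not reported here by name and was left out of the plots of single members. The alternatives were DESeq2 1.42.0, its size factors, other count filters, a replicate block, a GC content and length correction, limma 3.58.1 on FPKM, and leaving out each library. Precision was set by 3 libraries per genotype, and the part of counting error for members with few counts was not tested.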

Additional observations from a re-analysis of the deposited data

How the results depend on the processing

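No alternative gave a member with an adjusted p under 0.05. Higher DEGs among the members numbered 0 throughout, and lower DEGs 0 except when single libraries were left out (0 to 1, Cox6a2 without Becn1f/f replicate 1). At an unadjusted P under 0.05, the GC content and transcript length correction gave 1 higher member (Ndufb4) and 3 lower ones (Cyc1, Uqcrc2 and Cox5a, log2 fold changes -0.23, -0.22 and -0.24), and limma on log2(FPKM + 1) without a filter gave 1 higher (Ndufb4). Leaving out single libraries gave 0 to 1 higher (Cox7a2l without Becn1f/f replicate 1) and 0 to 2 lower members, namely Cyc1 and Cox6a2 without Becn1f/f replicate 1, Ndufa12 without Becn1f/f replicate 3, and Cyc1 without replicate 1 labelled Becn1f/f;Pf4-iCre. In the reported fit 6.31% of all tested genes had an unadjusted P under 0.05 in edgeR, and this share is not given for each alternative. Without Becn1f/f replicate 1, 398 of 12386 tested genes were DEGs, against 282 of 12256 in the reported fit. The members called in single alternatives are therefore not read as changed. The cause was not tested.

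The median log2 fold change of the members ranged from -0.24 to 0.08 when single libraries were left out, above 0 without either replicate 2, and from -0.10 to -0.06 in the other alternatives. Of 390 comparisons of the 26 tested named members with an alternative, 374 stayed within 1 standard error and short of the DEG thresholds. The other 16 came from leaving out a library. The members at an unadjusted P under 0.05 with the GC content and length correction or limma are among the 374. Over all genes, DEGs numbered 282 in the reported fit, 234 with DESeq2, 373 without a count filter and 129 with limma on log2(FPKM + 1). Correlations of deviations between libraries of the same replicate number were 0.07, -0.27 and 0.20, and those of unlike number ran from -0.296 to 0.237. With so few libraries they cannot decide whether the numbers pair them. With the replicate block 0 members were called, the median of the members was -0.09 and 296 genes were DEGs. Genes with an adjusted p under 0.05 numbered 5 in the reported fit, 77 with DESeq2 and 0 to 27 when single libraries were left out. Cox6a2 and Cox6b2, at 1.24 to 5.23 CPM, had the fewest counts of the tested members, with SE of 0.30 and 0.35. The SE of Atp5k, at a mean of 230.5 counts, was 0.31. The part of depth in these errors was not tested.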
